A study of Mus musculus with 12 samples.

Results

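The regions described here are binding sites of the glucocorticoid receptor (GR) that lie more than 100 kb from every protein-coding gene of the mouse. They were found by merging the peaks of all 11 libraries that shared at least 1 bp into 47485 regions on chromosomes 1 to 19 and X. A region was kept when at least 2 libraries, of any group, held a peak in it, and its centre had to lie more than 100 kb from every protein-coding gene span of mm10. Of 19219 regions called in at least 2 libraries, 3371 (17.5%) met the distance and are called far regions. The other 15848 are called gene-near regions. The binding values played no part in the distance rule.

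GR was mapped by chromatin immunoprecipitation and sequencing (ChIP-seq) in BWTG3 cells, a mouse hepatoma line, after 24 h without serum. The group NI (3 libraries) had neither agent in its title, DEX (3) had 1 µM dexamethasone (Dex, a synthetic glucocorticoid), TNF (2) had 1000 U/ml tumour necrosis factor, and TNFDEX (3) had the same TNF 1 h before the same Dex. Stimulation lasted 3 h in total, all cells were of the 1 line, and the design text calls the replicates biological. The series title places the experiment in glucocorticoid resistance brought on by TNF.

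GR is a nuclear receptor that sits mostly in the cytoplasm until a glucocorticoid binds it, and then enters the nucleus and binds DNA. It recognises glucocorticoid response elements, pairs of the hexamer AGAACA and its reverse complement TGTTCT with 3 bases between them, and it also meets DNA through other factors such as AP-1 and NF-kB. Much of its binding falls at enhancers, which act over long distances, so the nearest gene of a far region is a position label and need not be its target. In liver cells GR drives gluconeogenesis and amino acid breakdown and restrains inflammation.

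Sequence was at hand only at the starts of annotated RNAs, in RefSeq windows on GRCm38.p6 (the coordinates of mm10) that run from 250 bases before to 50 after each start. In all, 33 far regions overlapped 34 such windows, and every one of the 34 belonged to a long non-coding RNA (lncRNA). A window of 300 bases held AGAACA or TGTTCT, on either strand, in 18 of the 34 (52.9%). The share was 19% of all 32851 windows, 24.0% of 11575 lncRNA windows and 28.2% of the 2070 lncRNA windows that lie over 100 kb from protein-coding genes. The full pair with up to 2 mismatches in its 12 fixed bases, which can overlap a hexamer match, stood in 6 of the 34 (17.6%), in 1.84% of all windows and in 3.04% of the lncRNA windows over 100 kb away. These counts cover whole windows, also their bases outside the far region. The windows of Gm31254 and Gm31197 overlap the same far region and hold the same match on opposite strands, which is thus counted for each. Another window held 25 hexamers in a repeat. A match of letters is a description and not a receptor site.

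The 6 sequences below were picked to show the range, from a near-complete pair to none. Each is the stretch shared by the far region and the RefSeq window, 5′ to 3′ on the lncRNA's strand, with capitals for exact hexamers and for a pair with up to 2 mismatches. Gm33945 lies at chr10:21573837-21574010 (minus strand), Mir100hg at chr9:41474643-41474887 (plus), Gm31583 at chr16:24090108-24090315 (minus), Gm34401 at chr2:75285408-75285547 (minus), Gm34501 at chr15:11729569-11729748 (minus) and 4930471E19Rik at chr10:120636116-120636357 (minus).
Gm33945: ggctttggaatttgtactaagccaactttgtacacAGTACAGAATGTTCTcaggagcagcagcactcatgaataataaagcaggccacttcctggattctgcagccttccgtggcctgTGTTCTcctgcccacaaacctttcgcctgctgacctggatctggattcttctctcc
Mir100hg: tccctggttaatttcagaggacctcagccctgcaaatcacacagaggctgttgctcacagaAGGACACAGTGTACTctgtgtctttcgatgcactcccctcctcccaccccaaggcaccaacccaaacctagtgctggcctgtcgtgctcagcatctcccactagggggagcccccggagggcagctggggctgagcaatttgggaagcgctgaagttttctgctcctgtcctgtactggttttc
Gm31583: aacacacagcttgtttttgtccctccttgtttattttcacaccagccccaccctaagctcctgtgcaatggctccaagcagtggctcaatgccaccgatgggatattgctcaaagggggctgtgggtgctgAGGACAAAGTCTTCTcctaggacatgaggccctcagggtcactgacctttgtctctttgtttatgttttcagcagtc
Gm34401: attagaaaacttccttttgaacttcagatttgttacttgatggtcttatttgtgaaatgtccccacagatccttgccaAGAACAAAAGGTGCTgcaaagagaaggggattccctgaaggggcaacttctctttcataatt
Gm34501: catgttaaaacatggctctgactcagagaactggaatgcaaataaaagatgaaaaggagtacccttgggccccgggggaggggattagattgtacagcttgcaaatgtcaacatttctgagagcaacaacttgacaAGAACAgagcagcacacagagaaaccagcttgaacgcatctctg
4930471E19Rik: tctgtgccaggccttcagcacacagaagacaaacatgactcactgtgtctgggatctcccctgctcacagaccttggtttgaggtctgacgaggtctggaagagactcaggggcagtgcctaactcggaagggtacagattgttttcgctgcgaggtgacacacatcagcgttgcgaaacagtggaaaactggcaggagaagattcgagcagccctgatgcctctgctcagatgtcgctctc

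The stretch at Gm33945 held a pair with 1 mismatch and a further TGTTCT, and those at Mir100hg, Gm31583 and Gm34401 a pair with 2 mismatches. Gm34501 held a lone AGAACA, and 4930471E19Rik held no exact hexamer and no pair within 2 mismatches. Signal in these 6 regions did not follow the closeness of the match within the printed stretch. Each region ran beyond its stretch, and matches in the rest of the region are unknown. The values are the authors' normalized tag count, the tags in a peak per 20000000 tags of the library. At the region of 4930471E19Rik, 145 kb from Msrb3, the DEX libraries held 102.6, 132 and 152.1, the TNFDEX libraries 189.1, 115.4 and 204.4 and TNF library 1 held 17.2. No other library had a peak there. At the region of Gm33945, 177 kb from Aldh8a1, the DEX libraries held only 7.9, 12.7 and 14.2 and the TNFDEX libraries 17, 8.2 and 19.3, with no call elsewhere. Both regions were thus called in all 6 libraries with Dex, with all DEX values of the first above all those of the second.
At the region of Mir100hg, the host of a microRNA cluster, the DEX libraries held 53, 87.7 and 56, the TNFDEX libraries 96.2, 30.5 and 68.3 and NI library 2 held 9.2. At the region of Gm31583, 101 kb from Bcl6 (a transcriptional repressor), DEX library 3 held 9.5 and the TNFDEX libraries 23.2, 14.9 and 16.9. At the region of Gm34501, 110 kb from the natriuretic peptide receptor gene Npr3, the DEX libraries held 54.5, 74.4 and 170.2, the TNFDEX libraries 134, 53.6 and 122.1, and NI library 2 and TNF library 1 held 21.7 and 33. The region of Gm34401 had a peak in the TNFDEX libraries only and returns below with the other regions of that kind.

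Library depth lay between 39228805 and 51141996 tags, and the libraries held between 2524 and 22590 peaks. Peak lists give values only for called peaks, and where a library lacks a peak the level is unknown rather than 0. The lowest called far peak of a library stood at 5.5 to 6.6, so weak peaks rest on few tags. Libraries fell into a pair of classes by the share of their tags in mitochondrial peaks, 0.00645% to 0.0348% in NI 1, NI 2, DEX 1, DEX 2, TNF 1 and TNFDEX 1, and 0.355% to 0.541% in NI 3, DEX 3, TNF 2, TNFDEX 2 and TNFDEX 3. NI 3 and TNF 2, both of the second class, had the fewest regions. All 12 of 12 hepatocyte marker genes had a GR region within 50 kb in at least 2 DEX libraries, against 5 of 6 macrophage and 3 of 6 endothelial or stromal markers. The hepatocyte count was 12 in TNFDEX, 4 in NI and 2 in TNF. This is a count of binding sites and not of expression. The share over all genes was not counted, so these counts do not identify the cell type.

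With Dex, far regions were called in larger numbers. The NI libraries held 367, 694 and 99 far regions, the DEX libraries 1390, 1885 and 2199, the TNF libraries 1317 and 223, and the TNFDEX libraries 2990, 1291 and 2311. All DEX libraries were above all NI libraries, whereas TNF library 1 was above TNFDEX library 2. Across both backgrounds the number with Dex was 4.84-fold that without (log2 2.27, exact two-sided permutation within the other agent's strata, p = 0.01, adjusted p = 0.035 over 7 tests, smallest possible p 0.005). Within the mitochondrial classes the fold was 5.95 (exact permutation p = 0.0139, the smallest possible there). The need for a call in 2 libraries bears on this number, since 1877 of the far regions (55.7%) met it through libraries with Dex alone. Counted over all 8299 regions over 100 kb from genes, also those of 1 library, the log2 value was 1.42 and did not pass (exact permutation p = 0.015, adjusted p = 0.07). The call also rests on few libraries: the exact permutation test kept its adjusted p under 0.05 without TNFDEX library 1 (0.0389), and without any 1 of the other 10 it was between 0.0547 and 0.109. Without TNF library 2 the log2 value was 1.64 and without TNF library 1 it was 2.92. Permuted within replicate numbers (the replicate block), it was 2.31 with an exact permutation p of 0.0625, which is the lowest that block allows. TNF, across the Dex strata, gave a number 1.46-fold higher (log2 0.55, exact permutation p = 0.465, adjusted p = 0.543), which is within the spread between libraries and fell to -0.11 on the log2 scale without TNF library 1. The fold of Dex did not differ detectably between the backgrounds (difference of log2 values -0.68, exact permutation p = 0.65), and that difference was above 0 without NI library 3 (0.10), without TNF library 1 (0.59) and under the replicate block (0.18).

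**Figure D1:**
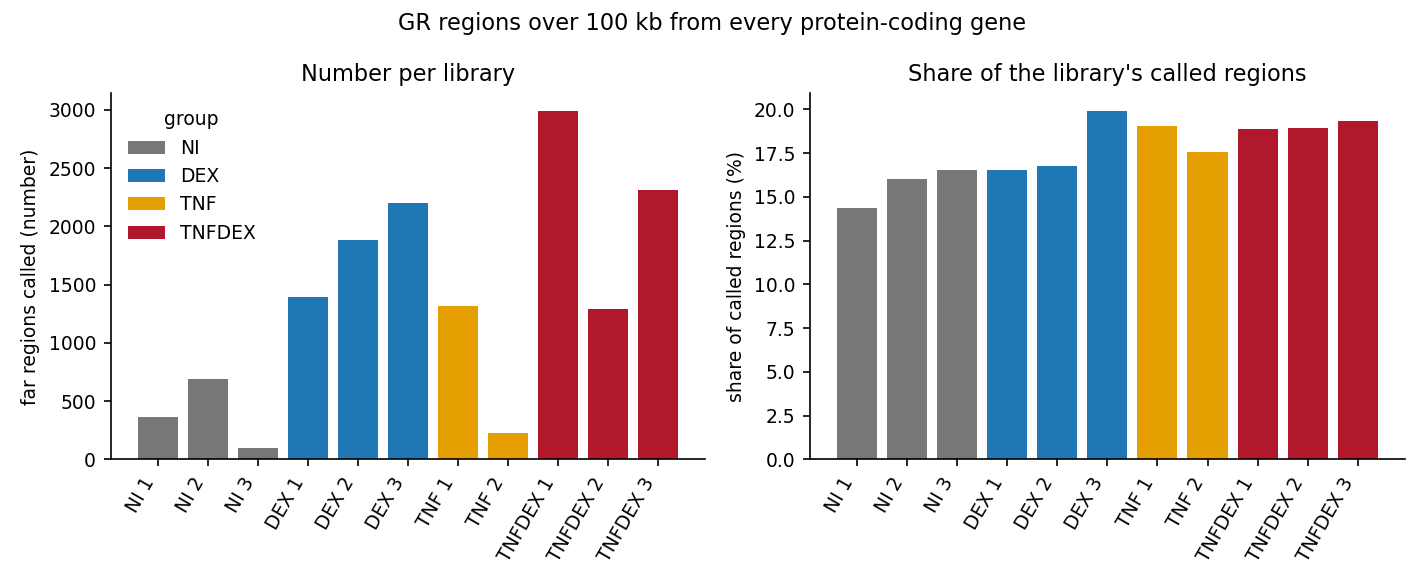
Far GR regions per library, by group: the left bars give the number called (from 99 in NI 3 to 2990 in TNFDEX 1) and the right bars the percentage of the library's called regions that were far. Numbers with Dex were mostly higher, while the share stayed between 14.4% and 19.9% in all 11 libraries.

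As a share of all regions a library called, far regions were 14.4%, 16% and 16.5% in NI, 16.5%, 16.8% and 19.9% in DEX, 19% and 17.6% in TNF and 18.9%, 18.9% and 19.3% in TNFDEX. The Dex difference of 1.42 percentage points (exact permutation p = 0.025, adjusted p = 0.0583) and the TNF difference of 1.98 points (exact permutation p = 0.045, adjusted p = 0.0788) did not pass after adjustment. Without TNFDEX library 1 the Dex difference was 1.46 points and passed (exact permutation adjusted p = 0.0389). Under stricter choices of peaks the Dex difference was below 0, and its size depended on the choice. With equal numbers of the strongest peaks per library it was -1.72 points and did not pass (exact permutation adjusted p = 0.158). With only peaks at least 8-fold over the input and over their surroundings, far regions made up 24.3%, 25.4% and 37.1% in NI and 27.7% and 36.1% in TNF. In the same selection they made up 20.5%, 21.6% and 22.4% in DEX and 22.8%, 20.6% and 21.1% in TNFDEX. Every library without Dex was then above every library with it, by 8.94 points within strata (exact permutation p = 0.005, adjusted p = 0.0117, the smallest p possible). NI library 3 had 35 regions in this selection and TNF library 2 had 144, so their shares are the least precise. This choice goes by fold and not by height, and the median far peak had the larger folds in every library. For gene-near peaks the median fold over the surroundings was 5.305 to 7.41 in libraries without Dex and 7.77 to 9.07 with it. The 8-fold limit thus cuts the groups at different points, and its part in the 8.94 points was not tested.

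Far and gene-near regions differed little in height and more in how they stood out locally. The median far region was lower than the median gene-near region in 8 of 11 libraries, equal in 2 and higher in TNF 1, and the mean difference was -0.07 on the log2 scale (exact two-sided sign-flip permutation p = 0.0078, adjusted p = 0.035). The libraries share regions and a cell line, so this test covers the spread between libraries only. Without any 1 library the difference lay between -0.08 and -0.06, and the exact permutation adjusted p lay between 0.0547 and 0.109, so no such subset of 10 libraries passed. In all 11 libraries the median far peak had the larger fold over the input, the larger fold over its surroundings and the larger focus ratio, the fraction of a peak's tags that lie on the side of its centre where their strand places them. Median folds over the input ranged from 10.6 to 16.8 for far peaks and from 8.99 to 13.6 for gene-near ones. Far regions were as repeatable as the rest: of 8299 far regions in any library, 59.4% were in 1 library alone, against 59.6% of gene-near ones.

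Dex-dependent calls made up about the same part of far regions as of all regions. A total of 643 far regions (19.1%) had a peak in every DEX library and in no NI library, against 19.8% of all 19219 regions. No far region showed the opposite, called in every NI library and in no DEX library, where the share of all regions was 0.0364%, and the count was 4, 6 and 10 without NI library 1, 2 and 3. Of the 643, 618 were also called in at least 2 TNFDEX libraries, 492 in every TNFDEX library, and none was missing from all TNFDEX libraries. Their mean signal in DEX had a median of 21.9 and ran from 7 to 296, and 27 were above 100. Without any 1 of the 6 libraries the count was 646 to 935. In 380 far regions (11.3%) a peak stood in all 6 libraries with Dex and in none of the 5 without, against 12.5% of all regions and 12.8% of gene-near ones.

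Several of the strongest far regions were of this kind. The region chr8:126736590-126736781 lies between Irf2bp2 (a transcriptional corepressor, 143 kb away) and Tomm20 (a mitochondrial import receptor). It held 240.4, 275.3 and 372.6 in DEX and 323.1, 174.4 and 356.1 in TNFDEX, and had no peak in the 5 libraries without Dex. The region chr5:126538249-126538427 is 688 kb from Gm4868 and 703 kb from Tmem132c, and held 196.3, 250.3 and 208.5 in DEX and 236.8, 152.1 and 282.9 in TNFDEX, with no other peak. At both, the ranges of DEX and TNFDEX overlapped. The region chr13:72825187-72825368, 191 kb from Irx2 (a homeobox factor of the Iroquois family), held 170.5, 223.3 and 239.1 in DEX and 268.3, 100.9 and 240.5 in TNFDEX, again with no peak without Dex.
The region chr4:55775904-55776193, 244 kb from Klf4 (a zinc finger factor of stem and epithelial cells), held 158.6, 227.9 and 218 in DEX and 280.8, 86.8 and 201.1 in TNFDEX. It had 14.7 in TNF library 1 and no peak in NI. The region chr11:111362657-111362839, 286 kb from the potassium channel gene Kcnj2, held 121.5, 133.1 and 320.1 in DEX and 212.3, 176.4 and 301 in TNFDEX. TNFDEX library 2 was the lowest TNFDEX library at all 5 regions. Another of the strongest in TNFDEX, chr5:118424729-118424921, lies 136 kb from Med13l and had no peak without Dex. It held 120.5, 135.1 and 168.9 in DEX and 256.7, 186.9 and 376.2 in TNFDEX. Every TNFDEX value there was above every DEX value, though no far region passed the limma test of that contrast given below.

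Other strong far regions also had peaks in libraries without Dex, at lower values than with it. A pair flanks the same stretch 210 and 229 kb from Foxa2, a pioneer factor of endoderm and hepatocytes. The first, chr2:147832702-147832933, held 11.4 and 26.6 in NI libraries 1 and 2, 197.3, 238.6 and 308.9 in DEX, 28.9 and 17.9 in TNF and 248.4, 134.1 and 284.5 in TNFDEX. The second, chr2:147813587-147813776, held 41.6 and 45.4 in NI libraries 1 and 2, 165.6, 246.8 and 317.5 in DEX, 51.2 in TNF library 1 and 266.3, 128.7 and 283.3 in TNFDEX. At both, every library with Dex was above every peak without it. The region chr5:12091803-12092008, between 4933402N22Rik and the semaphorin gene Sema3d, held 191.9, 239.1 and 389.4 in DEX and 277.9, 193.2 and 377 in TNFDEX, against 11.1 in NI library 2 and 13.2 in TNF library 1. The region chr15:62714305-62714569, 724 kb from Myc (a growth-promoting factor), held 147.7, 227.9 and 237.4 in DEX, 207.8, 93.1 and 192.8 in TNFDEX, and at most 16.2 in any library without Dex.

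**Figure D2:**
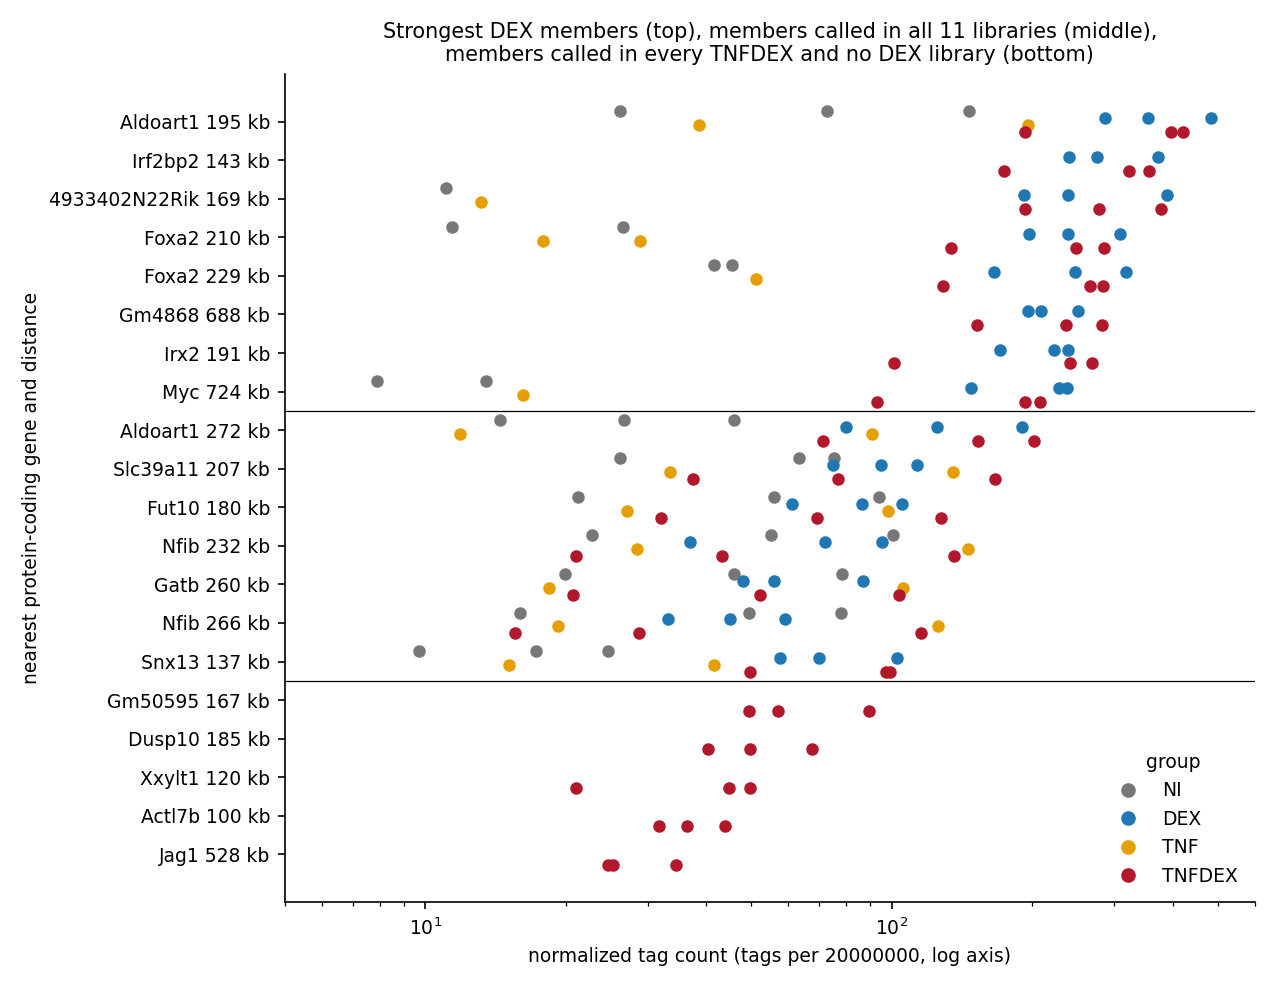
Normalized tag count (log axis) of each called library at 20 far regions, named by the nearest protein-coding gene and its distance; a missing point is a library without a call. The top block holds the strongest in DEX (led by the region 195 kb from Aldoart1), the middle block the strongest called in all 11 libraries and not already above, and the bottom block the strongest called in every TNFDEX and no DEX library, such as the 1 at 49.4 to 89.6 near Gm50595.

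A small set was bound in every library. A total of 35 far regions (1.04%) were called in all 11 libraries, against 0.517% of gene-near regions, and 89.2% of the 315 far regions called in at least 2 NI libraries were also called in at least 2 DEX libraries, against 72.1% of gene-near ones. Over the 35, the median was 24.3, 37.7 and 11.6 in NI, 34.7, 48.4 and 33.2 in DEX, 53.7 and 15.1 in TNF and 68.4, 16 and 29.6 in TNFDEX. The strongest of them, chr4:73047892-73048090, is 195 kb from Aldoart1, a testis-expressed aldolase gene. It held 72.8, 146.4 and 26.2 in NI, 287, 354.3 and 482.5 in DEX, 196.2 and 38.6 in TNF and 397.3, 193.2 and 420.2 in TNFDEX. All DEX values were above all NI values there.
Others showed no such step. The region chr4:82058065-82058299 lies 232 kb from Nfib, a nuclear factor I gene, inside the lncRNA Gm11264. It held 55, 100.5 and 22.8 in NI, 71.9, 95.3 and 37 in DEX, 145.5 and 28.5 in TNF and 136, 21.1 and 43.2 in TNFDEX. A second region 266 kb from Nfib held 49.5, 77.8 and 16 in NI and 45.1, 59.1 and 33.2 in DEX. The region chr11:113037824-113038029, between Sox9 (250 kb away, a factor of cartilage and bile duct development) and Slc39a11 (207 kb), held 63.4, 75.4 and 26.2 in NI, 74.9, 113.2 and 94.8 in DEX, 135.4 and 33.5 in TNF and 166.7, 37.5 and 76.9 in TNFDEX. In these 3 regions the groups overlapped, and in NI, TNF and TNFDEX the libraries of the high mitochondrial class were the lower ones. The part of that class in these values was not tested.

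The height of peaks was compared between groups with limma on the log2 normalized tag count, over regions called in every library of both groups and scaled by trimmed means of the log ratios (TMM). The test thus covers regions bound in both groups and leaves out gains and losses of a call. Before scaling, the median tested region was higher by 0.76 log2 units in DEX than in NI, and all changes below are relative to that shift. Of 178 regions tested, 47 were far. Of these, 3 were higher in DEX (12.9% of all tested regions were) and 1 was lower (5.06% of all) at an adjusted p under 0.05 by limma with Benjamini-Hochberg adjustment over all tested regions.
The higher ones were the region 195 kb from Aldoart1 given above (375 ± 99.3 against 81.8 ± 60.6, SD, n = 3 each, log2 1.64 ± 0.30 SE, limma adjusted p = 0.0127) and a second, chr4:72578448-72578669, 272 kb from the same gene. That second region held 26.7, 45.9 and 14.5 in NI and 79.8, 124.9 and 190 in DEX (log2 1.40 ± 0.31 SE, limma adjusted p = 0.0190). The last, chr12:35284044-35284299, lies between Snx13 (137 kb away, a sorting nexin) and Ahr (214 kb, the aryl hydrocarbon receptor), and held 17.3, 24.6 and 9.7 in NI and 57.5, 69.8 and 102.5 in DEX (log2 1.36 ± 0.27 SE, limma adjusted p = 0.0148). In all 3, every DEX value was above every NI value. Without NI library 1 the limma adjusted p was 0.0594 at the Snx13 region and 0.0708 at the region 272 kb from Aldoart1.
The lower region, chr14:97389296-97389541, lies 397 kb from Dach1, a transcriptional regulator, and its unscaled values overlapped, with 12.4, 23.2 and 8.7 in NI and 12.9, 17.8 and 12.5 in DEX (log2 -0.78 ± 0.22 SE, limma adjusted p = 0.0439). Its value turned to 0.07 with scaling to library totals (limma adjusted p = 0.923), and the limma adjusted p was above 0.05 without NI library 1, NI library 2 or any 1 DEX library.
With library totals 9 far regions were higher and none was lower. Under the replicate block 9 rose and 2 fell. A term for the mitochondrial class gave 10 and 3. Without NI library 1 the counts were 1 and 0, and without NI library 3 they were 26 and 5.

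**Figure D3:**
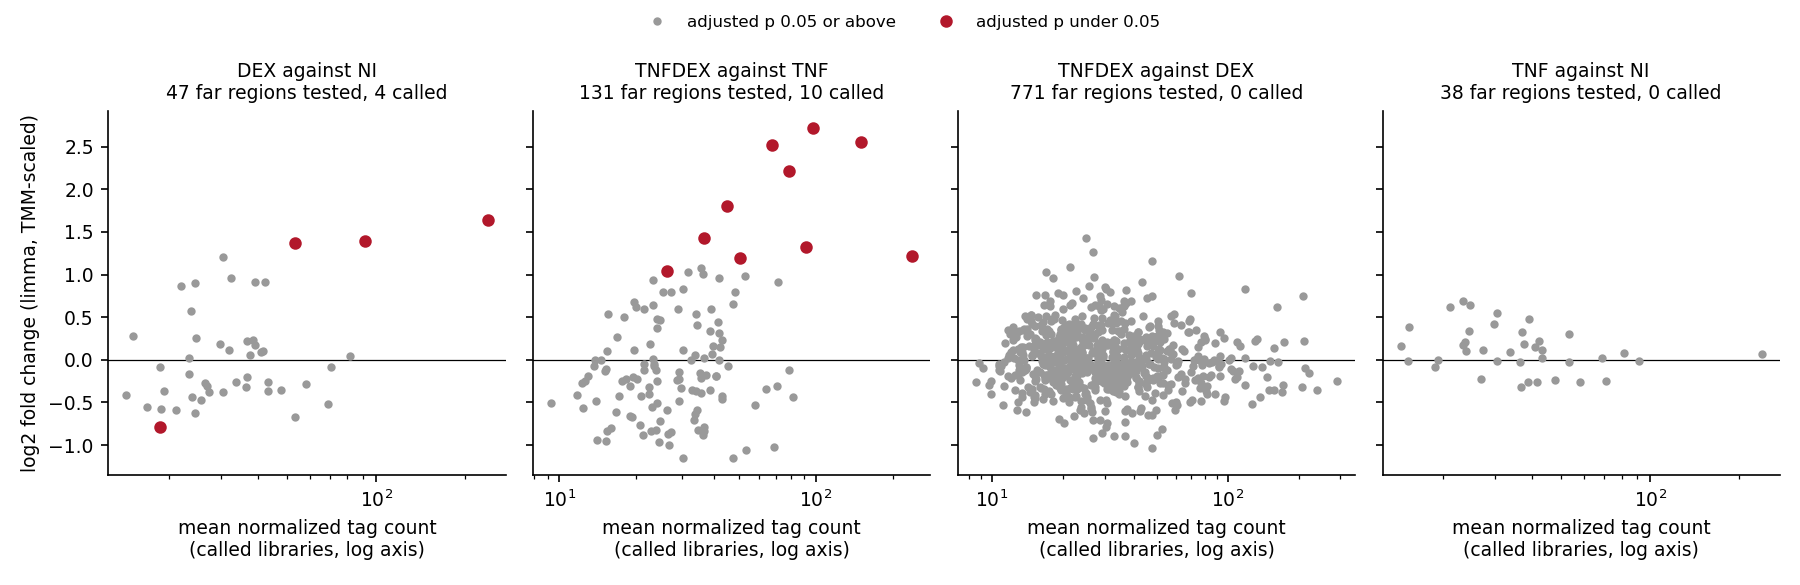
Each point is a far region tested by limma: the horizontal axis is its mean normalized tag count over called libraries (log axis) and the vertical axis the TMM-scaled log2 fold change of the contrast in the panel title. Red points pass an adjusted p of 0.05: 4 of 47 in DEX against NI, 10 of 131 in TNFDEX against TNF, and none of 771 and 38 in the other panels.

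TNF before Dex left most far regions called, and 1425 of the 1658 called in at least 2 DEX libraries (85.9%) were also called in at least 2 TNFDEX libraries, against 78.9% of gene-near ones. That number was 63.6% of the 2241 far regions called in at least 2 TNFDEX libraries, and 65.7% for gene-near regions. These shares were not tested. No single far region passed the test of signal: of 4022 regions tested, 771 were far, and none was higher or lower in TNFDEX than in DEX by limma with Benjamini-Hochberg adjustment (over all tested regions, 0.0249% higher and 0% lower), with 38 of 771 far regions and 259 of 4022 regions in all at an unadjusted p under 0.05. The median shift before scaling was 0.14 log2 units. With the replicate block or with the mitochondrial class as a term, 1 far region was higher in TNFDEX. Without DEX library 3 the count was also 1. The region of the block and class fits lies at chr2:46371092-46371302, 1254 kb from Zeb2, a zinc finger repressor, and held 12.4, 18.4 and 15.1 in DEX and 49.8, 27 and 48.9 in TNFDEX, with no overlap (log2 1.27 ± 0.28 SE with the block, limma adjusted p = 0.0368, and 0.190 in the fit with neither).

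More far regions gained a call than lost one. A peak in every TNFDEX library and in no DEX library was found in 42 far regions (1.25%), against 1.21% of all regions. The opposite was found in 1 far region (0.0297%), 192 kb from Gm38457, against 0.114% of all regions. The 42 were counted as 183 without DEX library 3 and 268 without TNFDEX library 2, and the single opposite region as 45 without TNFDEX library 1 and as 5 to 17 without DEX 1, DEX 2, DEX 3 or TNFDEX 3. TNFDEX libraries 1 and 3 held the most peaks of all libraries. Of the 42, 37 had no peak in any other library, 5 were in a TNF library, and their mean TNFDEX signal had a median of 12.6 and ran from 6.8 to 65.4, with 10 above 20.
The strongest of the 42 was chr2:75285359-75285547, 167 kb from the protein-coding model Gm50595 and at the start of the lncRNA Gm34401, whose sequence with a pair at 2 mismatches is printed above. It held 49.4, 57.1 and 89.6 in TNFDEX. A neighbour at another annotated start of Gm34401, chr2:75282794-75282997, held 26.5, 25.8 and 45.6 in TNFDEX and 10.2 and 16.4 in DEX libraries 2 and 3. The region chr1:184260865-184261041, 185 kb from Dusp10 (a phosphatase of the stress kinases p38 and JNK), held 49.8, 40.3 and 67.4. The region chr16:30835652-30835834, between Fam43a and Xxylt1 (120 kb away), held 49.8, 21.1 and 44.8. These 3 regions had peaks in no library outside TNFDEX, at levels well above the lowest called peaks.

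Few far regions could be tested for TNF alone. Of 151 regions compared between TNF and NI, 38 were far, none passed by limma in either direction (0% of all tested regions in both) and none had an unadjusted p under 0.05. The median shift before scaling was 0.34 log2 units. By calls, in 24 far regions (0.712%, against 0.604% of all regions) a peak stood in both TNF libraries and in no NI library, and in no far region was it the other way round (0.0468% of all), a count that was 4, 7 and 11 without NI library 1, 2 and 3 and 11 without TNF library 1. TNF library 1 was above TNF library 2 in 22 of the 24, 18 of them were also called in at least 2 DEX libraries, and the count was 673 without TNF library 2, 41 without TNF library 1 and 64 without NI library 2. Among the strongest were regions 134 kb from Slc4a3 (37.5 and 7.8 in TNF) and 184 kb from Nr5a2, a nuclear receptor of liver bile acid and cholesterol metabolism (29.9 and 11 in TNF, 31.5, 18.4 and 26.7 in TNFDEX).

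Dex on top of TNF raised the signal of 10 far regions and lowered none. Of 507 regions tested in TNFDEX against TNF, 131 were far. By limma with Benjamini-Hochberg adjustment 10 of the 131 (7.63%) were higher and none was lower, against 11.6% and 0.986% of all tested regions, relative to a median shift of 0.56 log2 units.
The largest fold was at chr1:94499809-94500024, 447 kb from Pdcd1 (the immune checkpoint receptor PD-1), with 12.2 and 8.7 in TNF and 165.5, 54.4 and 136.9 in TNFDEX (log2 2.72 ± 0.36 SE, limma adjusted p = 0.000328). The Foxa2 region 210 kb away rose by 2.56 ± 0.37 SE on the log2 scale (limma adjusted p = 0.000489). The region chr5:126967106-126967388, 275 kb from Tmem132c, went from 17.2 and 6.9 to 77.1, 78.2 and 158.7 (log2 2.52 ± 0.45 SE, limma adjusted p = 0.00162). At these 3 regions no TNFDEX value overlapped a TNF value, and each call held in every alternative run.
The region chr2:167828399-167828588 lies between Cebpb (138 kb away, a factor of the acute phase response) and Ptpn1 (102 kb, a phosphatase that dampens insulin signalling). It held 20.8 and 13.3 in TNF and 148.1, 73.1 and 164.9 in TNFDEX (log2 2.21 ± 0.37 SE, limma adjusted p = 0.00127). A region 143 kb from Eea1, an early endosome protein, held 18.8 and 9.6 in TNF and 84.6, 46.9 and 103.2 in TNFDEX (log2 1.81 ± 0.36 SE). A region 124 kb from Epha7, an ephrin receptor, held 15.7 and 7.8 against 70.1, 27.4 and 53.5 (log2 1.42 ± 0.32 SE). These 3 calls were lost with library totals (limma adjusted p = 0.0555 at Ptpn1, 0.123 at Eea1 and 0.245 at Epha7), and that of Epha7 also without TNFDEX library 3 (limma adjusted p = 0.0597). The remaining 4, near Actl7b, Nedd1 and Aldoart1 (2 regions), had log2 values from 1.04 to 1.33 and less stable calls. The Nedd1 call was lost in 7 of 13 alternatives, with library totals, with median scaling and without any 1 of the 5 libraries. The Actl7b call was lost in 4 of 13, with library totals and without TNFDEX library 3, TNF library 1 or TNF library 2. The call 195 kb from Aldoart1 was lost under the replicate block (limma adjusted p = 0.0763). Both Aldoart1 regions overlapped between the groups, and without TNF library 2 their log2 values were 0.00 (272 kb, sign turned to -0.0044) and 0.17 (195 kb).
The count of 10 was 5 without TNFDEX library 3 and 3 with library totals. It was 61 higher and 58 lower without TNF library 2, and 22 higher and 20 lower with the mitochondrial class as a term. Without TNFDEX library 1 or TNF library 1, 2 far regions were lower.
By calls, 698 far regions (20.7%) had a peak in every TNFDEX library and in no TNF library, against 20.6% of all regions, and 6 (0.178%) the opposite, against 0.401%. The 698 were 1340 without TNFDEX library 2, and the 6 were 70 without TNF library 2, 17 without TNF library 1 and 21 without TNFDEX library 1. The strongest of the 6, 118 kb from Zswim2, held 27.9 and 9.6 in TNF and 13.4 and 29 in NI libraries 1 and 2, and had no peak in any library with Dex.

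Far regions were thinner on the ground than gene-near ones. Between the outermost protein-coding genes of each chromosome, 738 Mb of 2600 Mb (28.4%) lay more than 100 kb from every such gene and held 17.5% of the regions, at 4.56 per Mb against 8.5 per Mb elsewhere. Far regions lay at a median of 234 kb from the nearest gene, 583 (17.3%) beyond 500 kb and 136 (4.03%) beyond 1 Mb. By distance, the share called in every DEX and no NI library was 20% at 100 to 200 kb, 18.9% at 200 to 500 kb, 18.3% at 500 kb to 1 Mb and 14.7% beyond 1 Mb (20 of 136). It was 18.3% for centres inside genes and 23.2% at 50 to 100 kb. The region farthest of all, 2266 kb from Pcdh20 (a protocadherin), held 12.1 in DEX library 3 and 8.6 in TNFDEX library 3 only. A region 1778 kb from Pcdh9 was called in all 6 libraries with Dex, with 10.9, 12.2 and 26.3 in DEX and 30.7, 10.9 and 19.7 in TNFDEX. At the 100 kb limit, the 3 regions just inside were nearest Rprm, Anxa5 and Actl7b and the 3 just outside nearest Dysf, Hpgd and Crisp1, and both sets mixed regions in 2 libraries with regions in 6 or more.
Far regions lay inside a lncRNA span more often, in 633 cases (18.8%), against 10.8% of gene-near regions. For pseudogene spans the shares were 0.415% and 0.486%. How much of the gene-far and other sequence these spans cover is not given here. By chromosome, far regions were between 7.52% (chromosome 7) and 28.1% (chromosome 13) of the regions called.

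The 3371 far regions had 1069 different nearest protein-coding genes, of which 409 had a single far region. Lists of genes were used to read the neighbourhoods, and each is given with its number of far regions per Mb of that gene-far sequence. The 72 developmental transcription factor genes of the list were nearest to 219 far regions (6.51% of the far regions between outermost genes, in 3.58% of the sequence, 8.30 per Mb). Trps1 had 27 of them, Zeb2 23 and Nr2f1, an orphan nuclear receptor, 10. Of the 219, 39 (17.8%) were called in every DEX and no NI library, against 19.1% of all far regions, and the median DEX signal was 14.7 against 13.9. Beside the Irx2 region, a strong one lay 112 kb from Grhl2, an epithelial factor, with 58.9 and 95.7 in NI libraries 1 and 2 and 90.2, 136.6 and 119.8 in DEX.
The 82 neuronal adhesion and synapse genes were nearest to 254 far regions (7.55%, in 11.6% of the sequence, 2.97 per Mb), with Cdh9 at 17 and Cdh6 and Epha7 at 15 each, all cell surface proteins. Of the 254, 31 (12.2%) were called in every DEX and no NI library, against 19.1% of all far regions. The list's median DEX signal was 10.9, against 13.9. A strong one lay 324 kb from Cdh9, with 26 and 119.8 in DEX libraries 2 and 3 and 60.1, 28.5 and 55.1 in TNFDEX. The neuronal list thus lay below the overall 4.56 per Mb, and the developmental list and the lists that follow lay above it.
Hepatocyte identity genes had 24 far regions in 2.90 Mb (8.28 per Mb). Of them, 10 were nearest Foxa2 and 4 each nearest Apob (an apolipoprotein secreted by the liver) and Nr5a2. Of these 24, 8 (33.3%) were called in every DEX and no NI library. The share was 19.1% of all far regions and 19.8% of all regions, and the difference was not tested. Glucocorticoid response genes had 5 far regions in 0.281 Mb (17.8 per Mb). They were 2 near Bcl6, 2 near Sgk1 (a kinase of salt and cell volume control) and 1 near Cebpb. Of the 5, 1 (20%) was called in every DEX and no NI library. That 1 lay 207 kb from Sgk1 and held 8.4, 10.2 and 14.6 in DEX. Inflammatory and NF-kB genes had 6 far regions in 0.229 Mb (26.3 per Mb, like the last from few regions), 5 nearest Nfkbiz (an atypical IkB protein) and 1 nearest Tnfaip3. The strongest near Nfkbiz, 196 kb away, held 10.9 and 17.9 in NI libraries 1 and 2, 19.3, 27.5 and 25 in DEX, 24.3 and 6.9 in TNF and 39.8 and 15.2 in TNFDEX libraries 1 and 3.

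Far regions were grouped along the chromosomes somewhat less than regions as a whole. With gaps under 50 kb, 350 groups of at least 3 far regions held 1508 (44.7%) of them, against 52.8% of all regions in such groups of their own, while 1109 had no far neighbour within 50 kb. Among the nearest genes Myc had the highest number of far regions, 33 in 1.22 Mb, followed by Trps1, Zeb2, Cited2 and Tbl1xr1 at 22 to 27. The largest group, 16 regions over 246 kb, lies between Klf4 and Actl7b, a testis actin-like gene. In it 8, 11 and 11 regions were called in DEX, 1, 6 and 0 in NI, 8 and 3 in TNF and 14, 8 and 10 in TNFDEX. Its members behaved differently side by side. At 140 kb from the start of the group a region held 53.5, 67.8 and 141.3 in DEX and 120.3, 44.6 and 120.5 in TNFDEX and was called nowhere else. The region at 113 kb was called in NI libraries 1 and 2 (44.1 and 64.3), in DEX (84.3, 94.3 and 78.8), in TNF (96.8 and 34) and in TNFDEX (151.8, 40.7 and 94.2). At the far end 2 regions stood side by side, 101 and 100 kb from Actl7b. The first held 21.7 in NI library 2, 32.2, 55.6 and 71.9 in DEX, 27.9 in TNF library 1 and 49.4 and 58.4 in TNFDEX libraries 1 and 3. The second had peaks in TNFDEX only (36.5, 31.7 and 44).
The next group, 15 regions over 159 kb, lies between A1bg and Myc, more than 430 kb from either. Of its 15 regions, 13 had no value above 39. A strong one was chr15:61546672-61546851, 439 kb from Myc, with 6.4 and 9.7 in DEX libraries 1 and 2 and 78.4, 41.5 and 66.2 in TNFDEX, and no peak elsewhere. It was outside the signal test because DEX library 3 had no peak, and it was singled out after its values were seen. In the same group, the strongest region 525 kb from A1bg held 54, 84.6 and 49.5 in DEX and 95, 35.6 and 59.2 in TNFDEX. The third group, 13 regions between Klf6 and Pitrm1, was weak throughout, with no value above 29.9.

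**Figure D4:**
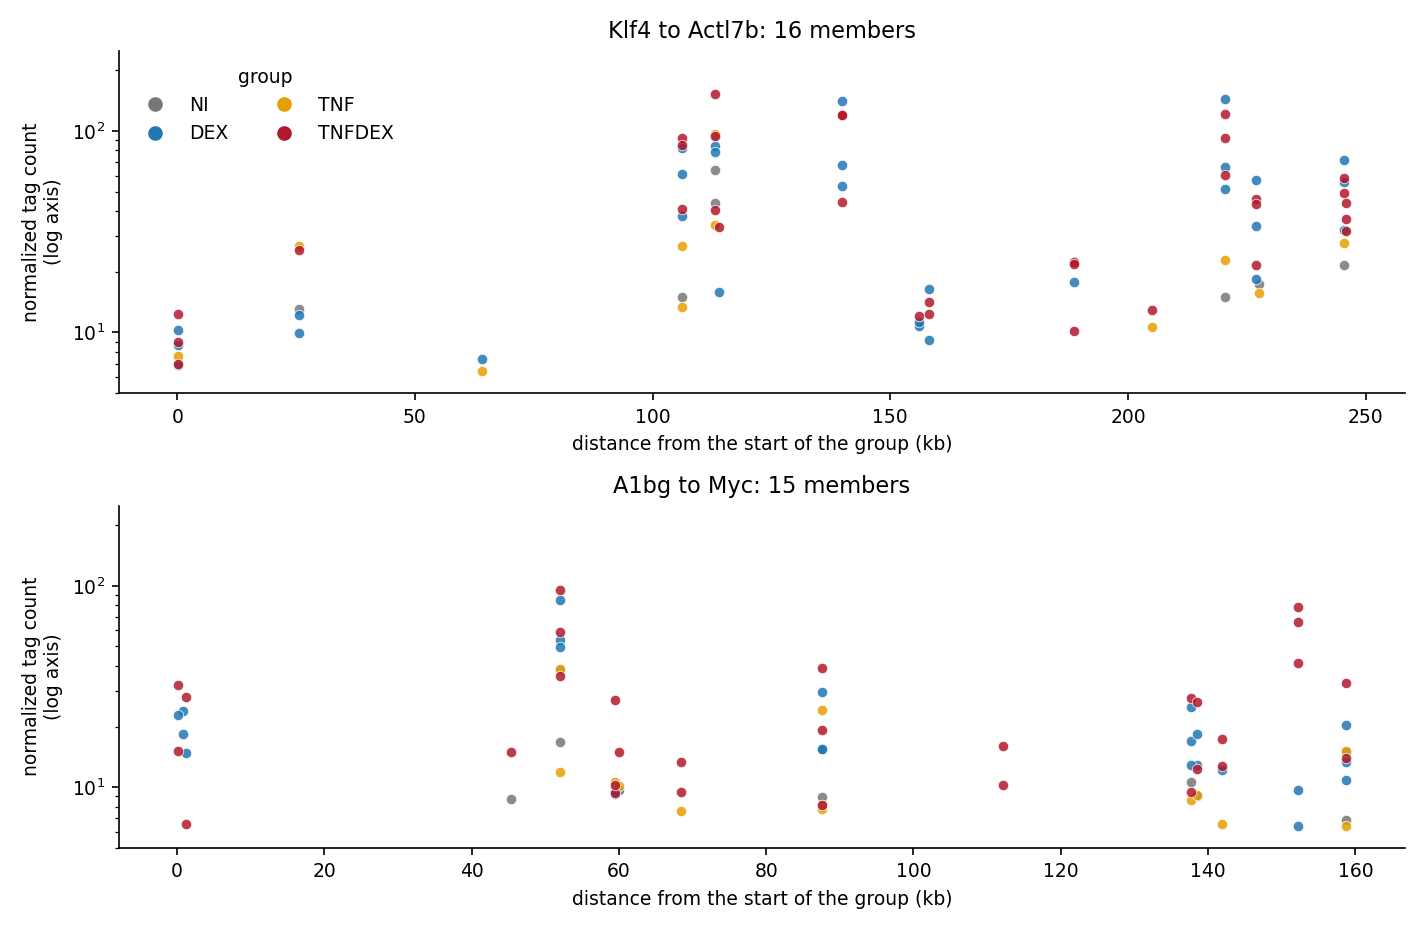
Normalized tag count (log axis) against the distance from the start of the group (kb) for the pair of largest groups of far regions, 1 point per called library, coloured by treatment group. In the upper panel the members of the Klf4 to Actl7b group differ in which treatments were called, and in the lower panel the region at 152 kb stands high in the TNFDEX libraries (41.5 to 78.4) and low in DEX.

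Finally, 2 far regions stood on a high input. They were the only ones with at least 20 input tags and were singled out for that after their values were seen. The region 282 kb from Pex2 had peaks only in NI 1, DEX 1 and TNF 1, at 286.7, 265.7 and 238.3. The region 171 kb from Samd9l had peaks only in the libraries numbered 1 of the 4 groups, at 165.9 to 185.2. At both, calls followed the replicate number and not the treatment, and the part of the input in them was not tested. Neither enters the gained or lost counts above, which need a peak in every library of a group.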

How the data were processed

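Peak lists of 11 GR ChIP-seq libraries were used; the input library itself was not analysed here. Per the submitters' processing notes, the tools were CASAVA 1.8, Bowtie 1.0.0 and HOMER 4.6, on mm10. How reads were trimmed or duplicates treated is not given in the sources used here. The peak finder findPeaks ran, per the file headers, in factor mode on each library against 1 input at a false discovery rate of 0.001, with peaks at least 4-fold over the input and over 10000 bp around them, with a Poisson limit of 0.0001. The deposited signal is the normalized tag count (tags per 20000000); the fold ratios, p-values, scores and focus fractions are likewise the authors' deposited values for single peaks.

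Peaks were merged, and distances taken from the centre to 21631 protein-coding gene spans of GRCm38.p6. Numbers and shares per library were compared by exact permutation within strata of the other agent, with Benjamini-Hochberg adjustment over 7 tests. For signal, log2 normalized tag counts with TMM factors went into limma 3.58.1 (R 4.3.3), with adjustment over all regions tested; the script was checked on simulated data; other steps used Python 3.11.15. Deviations of same-numbered libraries were correlated at 0.386, 0.446 and 0.561 between NI and DEX and at 0.461 and 0.408 between TNFDEX and TNF. They stood at 0.367, -0.364 and 0.572 between TNFDEX and DEX, and at 0.387 and -0.576 between TNF and NI. The pairs below 0, both of number 2, join libraries of different mitochondrial classes, and all other pairs join libraries of 1 class. Among the pairs above 0, pairing by number thus cannot be told apart from the class. The pairs below 0 share a number but not a class. What sets these correlations was not tested, and the blocked fit stands beside the first. The replicates' separate culture is known only from the design text.

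The regions and gene lists were chosen with earlier results of these data known. Most regions were named by rule. The rule took the strongest members of each group, of those called in all 11 libraries and of each gain or loss of calls. It also took every limma call up to 10 per direction, the farthest members and those at the 100 kb limit. The 3 largest groups of neighbours and the strongest of each list were added. The regions of the printed sequences were picked to show the range of matches, though that of Gm34401 also meets the rule. Alternatives changed the distance, the gene set, the libraries required, the merging, the peak threshold, the scaling, the model and the libraries used. A motif search over whole regions was not run because only promoter windows were at hand.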

Additional observations from a re-analysis of the deposited data

How the results depend on the processing

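The Dex effect on the number of far regions was above 0 in every alternative run. Its log2 value no longer passed, after adjustment, with regions of 1 library (1.42), peaks merged over 50 bp (2.29), the replicate block (2.31) or, in 10 of 11 cases, 1 library left out (1.64 to 2.92). The Dex effect on the far share passed at 50 kb (2.49 points) and turned negative with distance from every annotated gene (-0.14), with equal numbers of strongest peaks (-1.72) and with 8-fold peaks (-8.94); without 1 library it was 0.820 to 1.70. The far minus gene-near median did not pass at 50 kb (-0.0298), with regions of 1 library (-0.0581) or 3 (-0.0630), merging over 50 bp (-0.0688), equal numbers of peaks (-0.0240) or 1 library left out (-0.0818 to -0.0583). Its Dex effect passed within the mitochondrial classes (-0.0851) and was -0.154 to -0.0805 without 1 library. The TNF effect on the number was -0.108 to 1.19 without 1 library. The difference of the Dex effects was 0.177 under the replicate block and -1.96 to 0.587 without 1 library. The causes of these changes were not tested.

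Far regions with a peak in every DEX and no NI library numbered 988 at 50 kb, 366 at 200 kb, 104 away from every annotated gene and 369 with 8-fold peaks. For every TNFDEX and no DEX library the counts were 64, 20, 4 and 19. For every DEX and no TNFDEX library they were 3 at 50 kb and 0 at 200 kb and away from every gene. For both TNF and no NI library they were 14 at 200 kb, 3 away from every gene and 3 with 8-fold peaks. For every TNFDEX and no TNF library they were 389, 119 and 390 in that order. For both TNF and no TNFDEX library they were 12 at 50 kb, 3 at 200 kb, 2 away from every gene and 1 with 8-fold peaks. The distance and gene settings hold other numbers of regions by construction. Leaving out 1 library gave 0 to 10 (NI, no DEX), 24 to 673 (TNF, no NI), 0 to 11 (NI, no TNF), 44 to 268 (TNFDEX, no DEX), 1 to 45 (DEX, no TNFDEX), 699 to 1340 (TNFDEX, no TNF) and 6 to 70 (TNF, no TNFDEX).

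By limma, far regions higher in DEX than in NI numbered 9 with library totals, 9 under the replicate block, 10 with the mitochondrial class, 1 with 8-fold peaks, 6 at 50 kb and 1 to 26 without 1 library. Lower ones numbered 0 with library totals, a mean of at least 20, all 11 libraries or 8-fold peaks, 2 under the block, 3 with the class and 0 to 5 without 1 library. For TNFDEX against DEX, 1 was higher under the replicate block, with the class and at 50 kb, and 0 to 1 without 1 library. For TNFDEX against TNF, higher ones numbered 3 with library totals, 22 with the class, 3 with all 11 libraries, 6 with 8-fold peaks and 5 to 61 without 1 library. Lower ones numbered 1 with median scaling, 3 at a mean of at least 20, 2 under the block, 20 with the class, 1 at 50 kb and 0 to 58 without 1 library. Of 192 alternatives over the 14 calls of single regions, 160 kept the call, 30 lost it and 2 reversed: Dach1 with library totals (0.0659) and the region 272 kb from Aldoart1 without TNF library 2 (-0.00443; 2.11 without TNF library 1). The replicate block ended the TNFDEX against TNF call 195 kb from Aldoart1 (limma adjusted p = 0.0763) and changed none of the other 13 calls. It moved the DEX against NI counts from 3 higher and 1 lower to 9 and 2. Higher ones in TNFDEX against DEX went from 0 to 1, and lower ones in TNFDEX against TNF from 0 to 2. No further limma count moved by over 1.5 times. The far minus gene-near median has no blocked version. Where 1 TNF library was left, limma assumes that it varies like the other group.

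Peaks near the calling threshold rest on few tags, so calls there depend on depth and enrichment, and a missing call does not show that a site was unbound. Each library was set against the same single input. The tests of signal cover 38 to 771 far regions, those called throughout.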
